A study of Hermetia illucens with 24 samples.

Results

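The 150 genes described here were chosen because their RNA rose late in Hermetia illucens (black soldier fly) larvae kept on control feed. They are genes named by an NCBI LOC number. The mean log2(CPM + 1) of each (CPM, each count divided by the library total and scaled to a total of 1e6, computed without the dominant gene LOC119646963) had to differ by less than 1 between the control libraries of 6 h and 24 h, and had to be higher by 1 or more in the control libraries of 72 h than in both. Of 15129 LOC genes, 176 met both limits, and the 150 of largest rise were taken. They are called the members below. The rule used only the 12 control libraries, so every control value of the members is a description and received no test.

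Whole larvae 5 days old were given chicken feed that was either plain (control) or spiked with aflatoxin B1 (AFB1), and were sampled after 6, 24 and 72 h on it. Each library held total RNA of 2 pooled larvae, with 4 libraries for each of the 6 groups. The 3 control groups were thus larvae of 5 days plus 6, 24 or 72 h on plain feed, and the 3 AFB1 groups were larvae of the same ages and hours on the spiked feed. All groups were reared alike, and neither strain, genotype nor the AFB1 dose is given in the sources used here. Hours on the feed and age of the larva go together in this design and cannot be told apart. In RNA of whole larvae, fewer cells of a type and less RNA per cell cannot be told apart either.

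Black soldier fly larvae feed and grow through a series of moults before they stop feeding and pupate, and many insect genes for cuticle, digestion and storage are turned on and off with the stage within a moult cycle. AFB1 is a toxin of Aspergillus moulds that becomes harmful mainly after cytochrome P450 enzymes have oxidised it, and larvae of this fly are known for tolerating it in their feed. Of the 150 members, 142 are protein-coding genes and 8 are long non-coding RNA (lncRNA) genes in the RefSeq annotation of the assembly GCF_905115235.1. The lncRNA share of 5.33% lay beside 5.41% among all LOC genes with a count. The annotation at hand gives the LOC numbers no product names, so the members are described by level, time course, diet and place among their neighbours, and no function is given to any of them.

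Several libraries stood apart, and the results below are read with them in view. The 4 control libraries of 72 h were close to copies of each other. Only 1.87% of the genes compared differed beyond counting error between replicates 1 and 4 (adjusted p under 0.05), and at most 21.3% between any 2 of the 4, against 35.9% to 81.8% for library pairs of the other groups. For these libraries the 4 values are therefore given without an SD, and they may not show the spread between pools of larvae. Replicates 1 and 2 of AFB1 24 h were the most alike of the other pairs. Library totals ran from 6826454 to 27136702 counts. LOC119646963 took 7.12% to 81.1% of them, and it left replicates 3 and 4 of AFB1 24 h with 2097793 and 1711314 counts for all other genes, against 4526378 to 24355059 in the other libraries.

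The level of the members separated the control libraries of 72 h from all others. Averaged over the 150 members, log2(CPM + 1) was 6.20, 6.38, 6.35 and 6.15 in the 4 control 72 h libraries. It was 3.37, 5.36, 4.18 and 3.77 in replicates 1 to 4 of control 6 h, and 3.27, 4.10, 3.76 and 4.75 in those of control 24 h. Replicate 2 of control 6 h and replicate 4 of control 24 h thus stood nearest to the 72 h controls. In these 2 libraries 37 and 31 of the 150 members already reached the lowest control 72 h library, against 0 to 9 members in the other control libraries of 6 and 24 h.

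**Figure D1:**
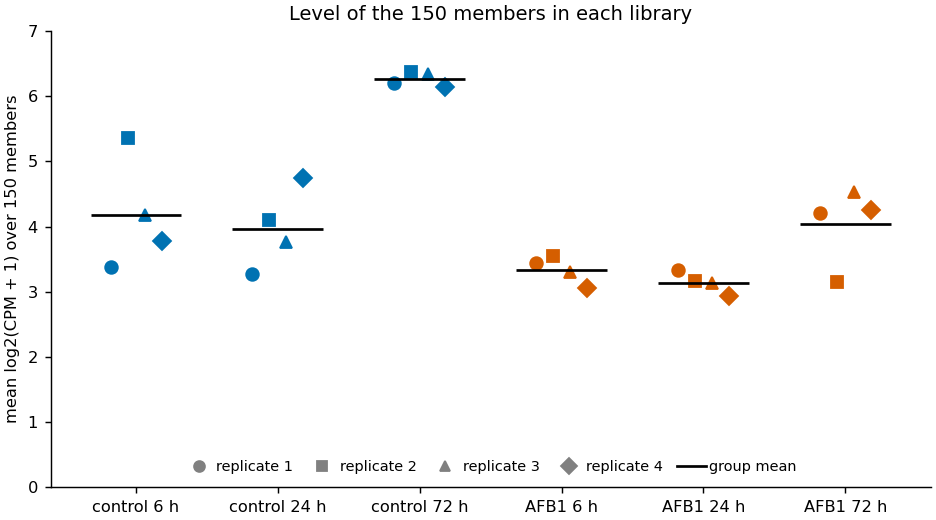
Mean log2(CPM + 1) over the 150 members in each of the 24 libraries, grouped by diet and hours on feed; each symbol is 1 library and the line is the mean of the group's 4 libraries. The control 72 h libraries lie between 6.15 and 6.38, the AFB1 libraries of 6 and 24 h between 2.94 and 3.55, and the AFB1 72 h libraries at 4.21, 3.14, 4.53 and 4.25.

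At 72 h the members stood lower on AFB1 feed, and the AFB1 72 h libraries lay closer to the earlier ones. At 6 and 24 h the library means of the diets overlapped. The members' mean log2(CPM + 1) was 3.44, 3.55, 3.31 and 3.05 in the 4 AFB1 libraries of 6 h, 3.33, 3.16, 3.13 and 2.94 at 24 h, and 4.21, 3.14, 4.53 and 4.25 at 72 h. Replicate 2 of AFB1 72 h stayed within the range of the earlier AFB1 libraries, while the other 3 lay above them, and none reached the control 72 h libraries. In counts, the members made up 5.21% to 5.50% of a control 72 h library without LOC119646963. They made up 4.16%, 1.54%, 3.78% and 4.86% of the AFB1 72 h libraries, and 0.957% to 1.65% of the AFB1 libraries of 6 and 24 h.

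The rise that chose the members ran from 1.15 to 4.98 on the log2 scale in controls, with a median of 1.83. Its lower end is a cut through a continuous series: the last genes taken, LOC119655781 and LOC119654084, had a rise of 1.15, and so did the first ones left out, LOC119651867 and LOC119654851. For 79 of the 150 members all 4 control 72 h libraries lay above all 8 earlier control libraries, as they did for 2.13% of all LOC genes with a count. For the other 71 members at least 1 earlier control library, most often replicate 2 of 6 h or replicate 4 of 24 h, overlapped the 72 h controls. The choice moved with single early libraries: without replicates 1, 2, 3 and 4 of control 6 h in turn the same rule would keep 112, 104, 120 and 124 of the 150 members, and without those of control 24 h it would keep 128, 132, 124 and 122. Without any 1 of the 72 h controls it would keep 145 to 148.

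LOC119651578, a protein-coding gene, had the largest rise. In controls it stood at 27.5, 2982, 32.5 and 25.9 CPM at 6 h, at 94.9, 34.5, 66.3 and 130 CPM at 24 h, and at 2615, 3541, 3352 and 2439 CPM at 72 h. One control library of 6 h, replicate 2, was already at the 72 h level, while the other 7 early control libraries were far below it. On AFB1 feed it stood at 86.8, 94.5, 100 and 31.5 CPM at 6 h, at 83.6, 87.4, 306 and 145 CPM at 24 h, and at 5148, 23.7, 2355 and 2566 CPM at 72 h. Replicates 1 and 4 of AFB1 72 h reached the range of the 72 h controls or passed it and replicate 3 lay just below it, whereas replicate 2 was lower than any earlier AFB1 library.

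The rise of the members was then looked for in the AFB1 libraries, which the rule did not use. Of 150 members, 57 (38.0%) were higher by 1 or more at 72 h than at both 6 h and 24 h on AFB1 feed (difference of mean log2(CPM + 1)), against 6.25% of all 13465 LOC genes with a count. The 57 became 50, 66, 45 and 49 without replicates 1, 2, 3 and 4 of AFB1 72 h in turn. The median rise over all 150 members was 0.39, against 0.00 over all those LOC genes. A fall of 1 or more below both earlier times occurred in 8 members (5.33%, against 3.36%). These backgrounds were not matched on level. A mean of at least 10 CPM in the 72 h controls was reached by 84% of members and 46.4% of LOC genes. A gene under 1 CPM in every library cannot differ by 1 on this scale. All 4 AFB1 72 h libraries lay above all 8 earlier AFB1 libraries for 9 members (background 2.18%) and below them for 4 (background 1.51%). They lay above all 6 h libraries for 11 (background 3.22%) and above all 24 h libraries for 25 (background 14.6%). Without replicate 2 of AFB1 72 h the other 3 lay above all earlier ones for 35 members (background 3.94%). That replicate was the lowest of the 4 in 71 members, against 13.2% of LOC genes. Ties went to the tied library of lowest number, so ties with replicate 1, as in genes without counts, were not counted for it.

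The test across all genes compared the 12 AFB1 libraries with each other (edgeR's quasi-likelihood test, two-sided, Benjamini-Hochberg adjustment over 9480 genes, called at an adjusted p under 0.05). The filter on low counts kept 112 of the 150 members, and the other 38 had enough counts in too few AFB1 libraries to be tested. Of the 39 members lower by 3 or more at 72 h on AFB1 feed than in controls, 18 were tested. Of the 64 within 1 of the controls, 57 were tested. The shares and medians below are those of the tested members, among which the members lowest on AFB1 feed are under-represented. Between 6 h and 72 h, 12 members rose, where 1.62% of all tested genes did, and 6 fell, where 2.29% of all did. The median log2 fold change was 1.26 over the tested members and 0.02 over all tested genes. Between 24 h and 72 h, 32 members rose (background 12.2%) and 8 fell (background 11.5%), with medians of 1.20 and 0.10. Against both earlier times 11 members rose (9.82%, where 1.5% of all tested genes did) and 4 fell (3.57%, where 1.89% did). Against at least 1 of them 33 rose (29.5%, against 12.4%) and 10 fell (8.93%, against 11.9%). None was called between 6 h and 24 h (background 0%), where edgeR gave 5 members higher and 8 lower at an unadjusted p under 0.05 (4.46% and 7.14%, against 9.1% and 12.4% of all tested genes). DESeq2 called 2 higher and 2 lower (1.79% each, against 2.24% and 3.93% of all).

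These counts moved with single libraries, and so did the counts over all genes. The 12 members that rose from 6 h (10.7% of those tested, background 1.62%) became 27 without replicate 2 of AFB1 72 h (23.5%, where 2.3% of all genes did). They became 5 without replicate 1 of that group (4.42%, all genes 1.58%), 5 without its replicate 3 (4.5%, all genes 0.595%) and 4 without its replicate 4 (3.54%, all genes 1.32%). Without replicates 1 to 4 of AFB1 6 h in turn they became 3, 4, 4 and 3 (2.59% to 3.51%, all genes 0.496% to 0.74%), and without replicate 2 of AFB1 24 h 5 (4.31%, all genes 0.96%). The 6 that fell from 6 h became 3 without replicate 1, 3 or 4 of AFB1 72 h (2.65% to 2.7%, all genes 0.752% to 1.28%). The 32 that rose from 24 h (28.6%, background 12.2%) became 14 without replicate 2 of AFB1 24 h (12.1%, all genes 5.78%), 12 without its replicate 3 (10.3%, all genes 3.92%) and 20 without its replicate 4 (17.2%, all genes 9.16%). They became 17 without replicate 4 of AFB1 72 h (15%, all genes 6.04%). Without both of the shallow libraries, replicates 3 and 4 of AFB1 24 h, they became 2 (1.56%, all genes 0.755%).

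Among members that rose on AFB1 feed, LOC119654081 had the lowest p against both earlier times. In controls it stood at 62.2, 553, 33.6 and 21.4 CPM at 6 h, at 35.8, 175, 3.32 and 63.1 CPM at 24 h, and at 985, 1065, 976 and 993 CPM at 72 h. On AFB1 feed it stood at 28.5, 37.3, 50.3 and 79.1 CPM at 6 h, at 53.1, 35.3, 23.3 and 21.6 CPM at 24 h, and at 489, 197, 1359 and 1631 CPM at 72 h. The AFB1 72 h libraries did not overlap the earlier ones, and 2 of them passed the control 72 h level while 2 stayed below it. The log2 fold change was 4.27 (SE 0.71, edgeR adjusted p = 0.00768) against 6 h and 4.60 (SE 0.72, adjusted p = 0.00404) against 24 h.

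LOC119655165 followed a like course at a lower level. It stood at 28.0, 28.5, 9.05 and 20.8 CPM at 6 h on AFB1 feed, at 19.7, 17.2, 10.0 and 11.7 CPM at 24 h, and at 169, 51.0, 276 and 373 CPM at 72 h. The 72 h controls stood at 201, 260, 269 and 201 CPM, so that replicate 2 of AFB1 72 h was again the low one and the other 3 lay on both sides of the controls. The log2 fold change was 3.44 (SE 0.59, edgeR adjusted p = 0.00871) against 6 h and 3.71 (SE 0.61, adjusted p = 0.00418) against 24 h.

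LOC119660570 differed between 72 h and the higher of the earlier times by 1.18 in controls and by 3.19 on AFB1 feed, as means of log2(CPM + 1). In controls it stood at 39.0, 16.1, 11.9 and 4.00 CPM at 6 h, at 4.66, 6.99, 19.6 and 3.84 CPM at 24 h, and at 32.1, 32.1, 31.9 and 31.2 CPM at 72 h. On AFB1 feed it stood at 7.76, 7.98, 7.73 and 3.03 CPM at 6 h, at 3.96, 2.93, 6.19 and 3.50 CPM at 24 h, and at 96.0, 49.6, 19.6 and 190 CPM at 72 h. Here replicate 3 was the low library of AFB1 72 h, and it alone lay below the 72 h controls. The log2 fold change was 3.75 (SE 0.72, edgeR adjusted p = 0.013) against 6 h and 4.24 (SE 0.76, adjusted p = 0.00574) against 24 h.

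**Figure D2:**
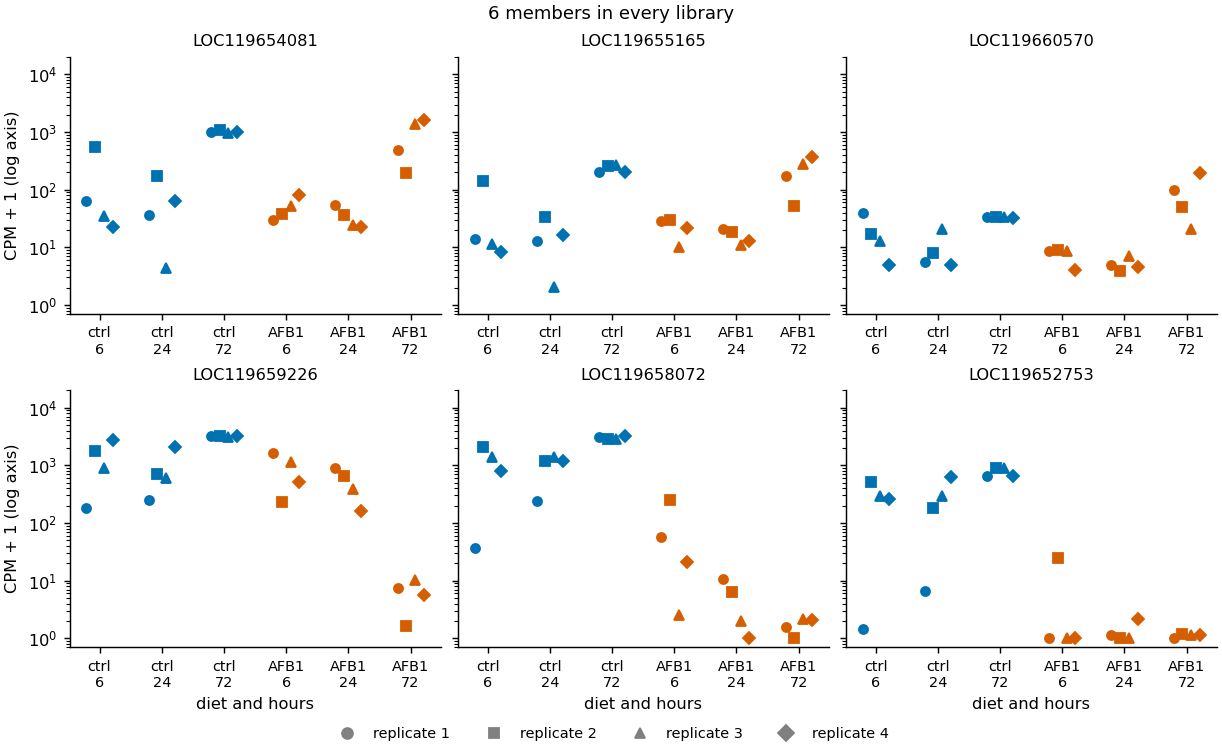
CPM + 1 on a log axis for 6 members in every library, by diet (ctrl, control; AFB1) and hours; each symbol is 1 library and its shape gives the replicate number. LOC119654081, LOC119655165 and LOC119660570 are high at 72 h on both diets, while LOC119659226, LOC119658072 and LOC119652753 are high in the 72 h controls and under 10 CPM in the AFB1 72 h libraries.

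The calls of these 3 genes held when any 1 of the 12 AFB1 libraries was left out, for both contrasts. Those of the other members named for their rise did not hold against 6 h. LOC119649400 rose by 2.89 against 6 h (edgeR adjusted p = 0.0267) and by 3.64 against 24 h (adjusted p = 0.0105). Its AFB1 values were low throughout, at 0.883 to 1.88 CPM at 6 h, 0 to 1.14 CPM at 24 h, and 16.2, 2.04, 10.3 and 15.1 CPM at 72 h. LOC119650273 rose by 2.07 against 6 h (adjusted p = 0.0341) and by 2.12 against 24 h (adjusted p = 0.015). Unlike most members, it was highest in replicate 2 of AFB1 72 h, at 133 CPM beside 29.9, 52.2 and 63.2 CPM. Without any 1 of the 4 AFB1 6 h libraries, or without replicate 3 or 4 of AFB1 72 h, neither gene was called against 6 h (highest adjusted p 0.0762 and 0.0829). The first also lost that call without replicate 1 of AFB1 72 h, and the second without replicate 2 of AFB1 72 h or replicate 1 or 2 of AFB1 24 h.

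LOC119651578, the gene of largest rise in controls, also rose on AFB1 feed, by 5.00 against 6 h (SE 1.18, edgeR adjusted p = 0.0334) and by 3.75 against 24 h (SE 1.11, adjusted p = 0.0305). With replicate 2 of AFB1 72 h at 23.7 CPM, the calls were fragile. Leaving out any 1 of the 6 h libraries, replicate 1 or 2 of 24 h, or replicate 1, 3 or 4 of 72 h ended the call against 6 h (highest adjusted p 0.0982, log2 fold change 4.34 to 5.44). Leaving out any 1 of the 24 h libraries or replicate 1, 3 or 4 of 72 h ended the call against 24 h (highest adjusted p 0.076, log2 fold change 3.10 to 4.51).

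The members with the highest control 72 h counts, which also depend on transcript length, were unlike each other on AFB1 feed. LOC119654084 stood at 4351, 4088, 4045 and 4178 CPM in the 72 h controls and at 4117, 2799, 6991 and 9915 CPM in the AFB1 72 h libraries, up from 637 to 1402 CPM at 6 h and 235 to 1373 CPM at 24 h on AFB1 feed. It rose by 2.47 against 6 h (edgeR adjusted p = 0.0469) and by 2.82 against 24 h (adjusted p = 0.0137). LOC119656166 stood at 3203 to 3303 CPM in the 72 h controls and at 2181, 1857, 1550 and 3725 CPM in the AFB1 72 h libraries, up from 266 to 1110 CPM at 6 h and 114 to 296 CPM at 24 h. It rose by 2.01 against 6 h (adjusted p = 0.0388) and by 3.29 against 24 h (adjusted p = 0.00415). Both lost the call against 6 h without replicate 1, 3 or 4 of AFB1 6 h, replicate 2 of AFB1 24 h, or replicate 1, 3 or 4 of AFB1 72 h (highest adjusted p 0.135 and 0.12). LOC119654084 lost it also without replicate 2 of AFB1 6 h. LOC119653839 stood at 3056 to 3502 CPM in the 72 h controls and at 3337, 1545, 1398 and 3021 CPM in the AFB1 72 h libraries. It was not called against 6 h (adjusted p = 0.231) or 24 h (adjusted p = 0.352).

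LOC119659226 was as high as these genes in the 72 h controls and fell on AFB1 feed. In controls it stood at 180, 1792, 909 and 2732 CPM at 6 h, at 252, 712, 592 and 2095 CPM at 24 h, and at 3241, 3252, 3129 and 3253 CPM at 72 h. On AFB1 feed it stood at 1608, 232, 1159 and 512 CPM at 6 h, at 913, 662, 380 and 158 CPM at 24 h, and at 6.46, 0.654, 9.17 and 4.65 CPM at 72 h. At 6 and 24 h the diets overlapped, and at 72 h they lay far apart. The log2 fold change on AFB1 feed was -7.52 (SE 1.06, edgeR adjusted p = 0.00263) against 6 h and -6.86 (SE 1.03, adjusted p = 0.00317) against 24 h, and both calls held without any 1 of the 12 libraries.

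LOC119659184 fell as well, from a lower level. Its AFB1 values were 6.90, 6.93, 5.30 and 5.23 CPM at 6 h, 4.84, 5.20, 1.90 and 0.584 CPM at 24 h, and 0, 0.0818, 0.129 and 0 CPM at 72 h, beside 105, 148, 150 and 116 CPM in the 72 h controls. Only 2 counts were left over the 4 AFB1 72 h libraries. Summed counts over summed library totals gave a ratio of 125 for 6 h to 72 h (95% exact binomial interval 34.3 to 1034). For 24 h to 72 h that ratio was 79.4 (21.2 to 669), and both intervals cover counting error only. It was called lower against 6 h (edgeR adjusted p = 0.00144) and 24 h (adjusted p = 0.00252), also without any 1 of the 12 libraries.

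LOC119657527 and LOC119651465 were the other members called lower at 72 h against both times. LOC119657527 fell by 4.81 against 6 h (edgeR adjusted p = 0.0344) and by 4.31 against 24 h (adjusted p = 0.0205), from 10.6 to 99.5 CPM at 6 h to 2.12, 0.409, 0.775 and 1.94 CPM at 72 h. Its call against 6 h was lost without any 1 library of AFB1 6 h or AFB1 72 h, or without replicate 2 of AFB1 24 h (highest adjusted p 0.11), and its call against 24 h without replicate 2 of AFB1 24 h or replicate 3 of AFB1 72 h (highest adjusted p 0.061). LOC119651465 stood at 1.55 to 12.7 CPM at 6 h, 0.584 to 5.53 CPM at 24 h and 0 to 0.482 CPM at 72 h (adjusted p = 0.0115 and 0.0108).

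LOC119661222 and LOC119654437 were called lower against 24 h alone. LOC119661222 stood at 2.64, 1.95, 8.57 and 0.584 CPM at 24 h and at 0, 0.245, 0.258 and 0 CPM at 72 h (log2 fold change -5.04, edgeR adjusted p = 0.0131). LOC119654437 stood at 2.05, 4.71, 3.81 and 2.33 CPM at 24 h and at 0.129 to 0.259 CPM at 72 h (log2 fold change -4.20, adjusted p = 0.00416). At 6 h on AFB1 feed LOC119661222 stood at 0.388 to 3.09 CPM. LOC119654437 stood there at 0.164 to 0.883 CPM, overlapping its 72 h values, with a log2 fold change of 3.18 at 24 h against 6 h (edgeR adjusted p = 0.149). In the controls each had high early libraries: LOC119661222 reached 128 CPM in replicate 3 of 6 h and 91.9 CPM in replicate 4 of 24 h, and LOC119654437 reached 851 CPM in replicate 4 of 24 h, above its 84.0 to 161 CPM at 72 h. LOC119661301 and LOC119646248 were also called lower against 24 h alone (log2 fold change -1.91 and -3.47, edgeR adjusted p = 0.0164 and 0.0196).

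The diets were also set side by side at each time. These differences are a description, since the control values chose the members, and a gene picked for being high in the 72 h controls is more likely to be lower elsewhere. At 72 h the median over the members of AFB1 minus control was -1.11 on the log2 scale, against 0.03 over all LOC genes with a count. By library, that median was -1.04, -2.45, -1.26 and -1.07 in replicates 1 to 4 of AFB1 72 h. Of 150 members, 78 were lower on AFB1 feed by 1 or more (background 7.26%), 64 were within 1 (background 87.8%) and 8 were higher by 1 or more (background 4.93%). These backgrounds too were not matched on level. All 4 AFB1 72 h libraries lay below all 4 controls for 58 members (background 7.76%) and above them for 2 (background 8.44%).

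Differences of this size were also present at the earlier times. At 6 h, 45 members were lower on AFB1 feed by 1 or more (background 13.9%) and 15 were higher (background 4.53%). At 24 h, 55 were lower (background 22.1%) and 32 higher (background 7.33%). Across the 150 members, the difference at 72 h went with that at 6 h (Spearman's rho 0.71) and at 24 h (rho 0.71), differences that share no library but share the choice of members.

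**Figure D3:**
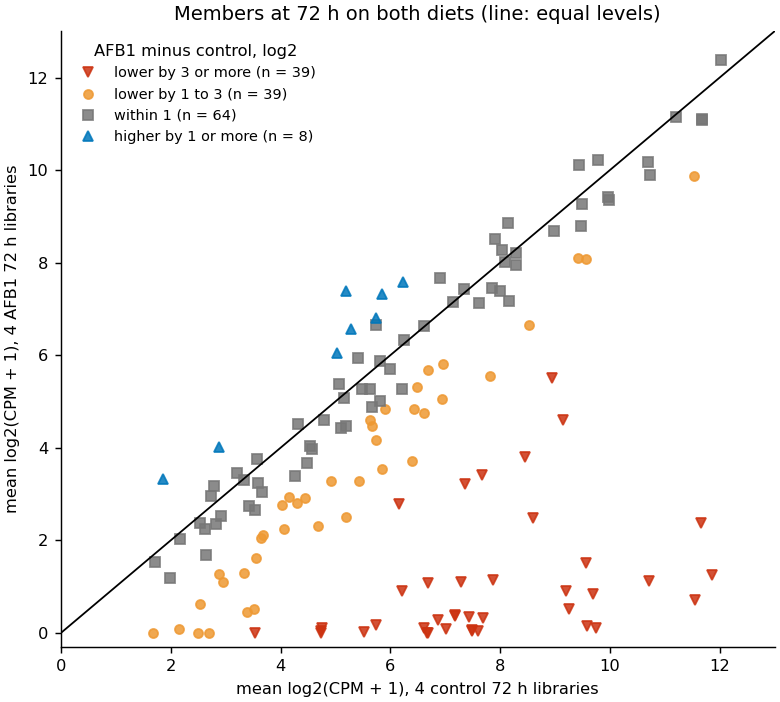
Mean log2(CPM + 1) of each of the 150 members at 72 h, in 4 control libraries (x axis) and 4 AFB1 libraries (y axis), with the line of equal levels; colours and shapes give the class of the difference. Of the members, 64 lie within 1 of the line, and 39 lie 3 or more below it, with a median of 0.39 on AFB1 feed.

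Sorted by that difference, 39 members were lower by 3 or more at 72 h on AFB1 feed (background 2.93%). Their median log2(CPM + 1) was 7.49 in the 72 h controls and 0.39 in the AFB1 72 h libraries. They were low on AFB1 feed from the start, with 1.38 at 6 h and 0.35 at 24 h, against 5.18 and 5.05 in the controls of those times. Of the 39, 33 were lower on AFB1 feed by 1 or more at all 3 times, 19 stayed at or under 1 CPM in all 4 AFB1 72 h libraries, and none was higher by 1 or more at 72 h than at both earlier times. Within the early controls this class was uneven: its median was 2.38, 7.33, 6.96 and 5.52 in replicates 1 to 4 of 6 h, and 2.76, 4.44, 6.16 and 6.92 in those of 24 h. The libraries numbered 1 were thus low and came nearest to the AFB1 libraries. On AFB1 feed, replicate 2 of 6 h stood highest, at 3.37 beside 0.53 to 1.24.

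The largest differences at 72 h among members of at least 10 CPM in the controls belonged to LOC119658072, LOC119658071, LOC119650328, LOC119657527 and LOC119652753. LOC119658072 stood at 3058, 2882, 2833 and 3179 CPM in the 72 h controls and at 0.578, 0, 1.16 and 1.03 CPM in the AFB1 72 h libraries. At 6 h on AFB1 feed it still stood at 55.2, 252, 1.55 and 20.1 CPM, and at 24 h at 9.69, 5.36, 0.952 and 0 CPM. LOC119658071 took nearly the same course, from 7.07 to 614 CPM at 6 h to 20.4, 16.1, 0.952 and 1.17 CPM at 24 h and 1.64, 0.327, 3.49 and 1.03 CPM at 72 h. Both were called lower at 72 h than at 6 h (log2 fold change -6.74 and -6.62, edgeR adjusted p = 0.0244 and 0.0234). Both lost the call without replicate 1, 3 or 4 of AFB1 72 h, and LOC119658072 also without replicate 1 or 2 of AFB1 6 h or replicate 2 of AFB1 24 h (highest adjusted p 0.0709, and 0.0705 for LOC119658071). With 1 AFB1 library left out in turn, the log2 fold change ran from -7.15 to -5.22 for LOC119658072 and from -7.20 to -4.36 for LOC119658071.

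LOC119650328 and LOC119652753 had enough counts in too few AFB1 libraries to be tested. LOC119650328 stood at 977, 745, 801 and 943 CPM in the 72 h controls and held 3 counts over the 4 AFB1 72 h libraries. LOC119652753 stood at 653, 894, 893 and 653 CPM in the 72 h controls and at 0, 0.164, 0.129 and 0.129 CPM in the AFB1 72 h libraries. It was at 0 counts in 3 of 4 AFB1 6 h libraries and at 23.7 CPM in replicate 2. In its controls, replicate 1 was low both at 6 h (0.468 CPM beside 255 to 507) and at 24 h (5.58 CPM beside 183 to 618).

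At the far end, 7 members had no count in any AFB1 72 h library, and 3 of them, LOC119650060, LOC119652756 and LOC119647707, had none in any of the 12 AFB1 libraries. With the 4 libraries' sum set to a floor of 3 counts, LOC119654436 was at least 1370-fold higher in the 72 h controls and LOC119655129 at least 1297-fold. For LOC119650060, LOC119652756 and LOC119647707, with 9.73 to 11.9, 3.91 to 5.47 and 1.86 to 2.93 CPM in those controls, the floors were 137-fold, 57.1-fold and 27.1-fold. Of the other LOC genes as well, many had no count there: 8.99% of those counted anywhere in the series were at 0 in all 4 AFB1 72 h libraries, beside 4.67% of the members.

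**Figure D4:**
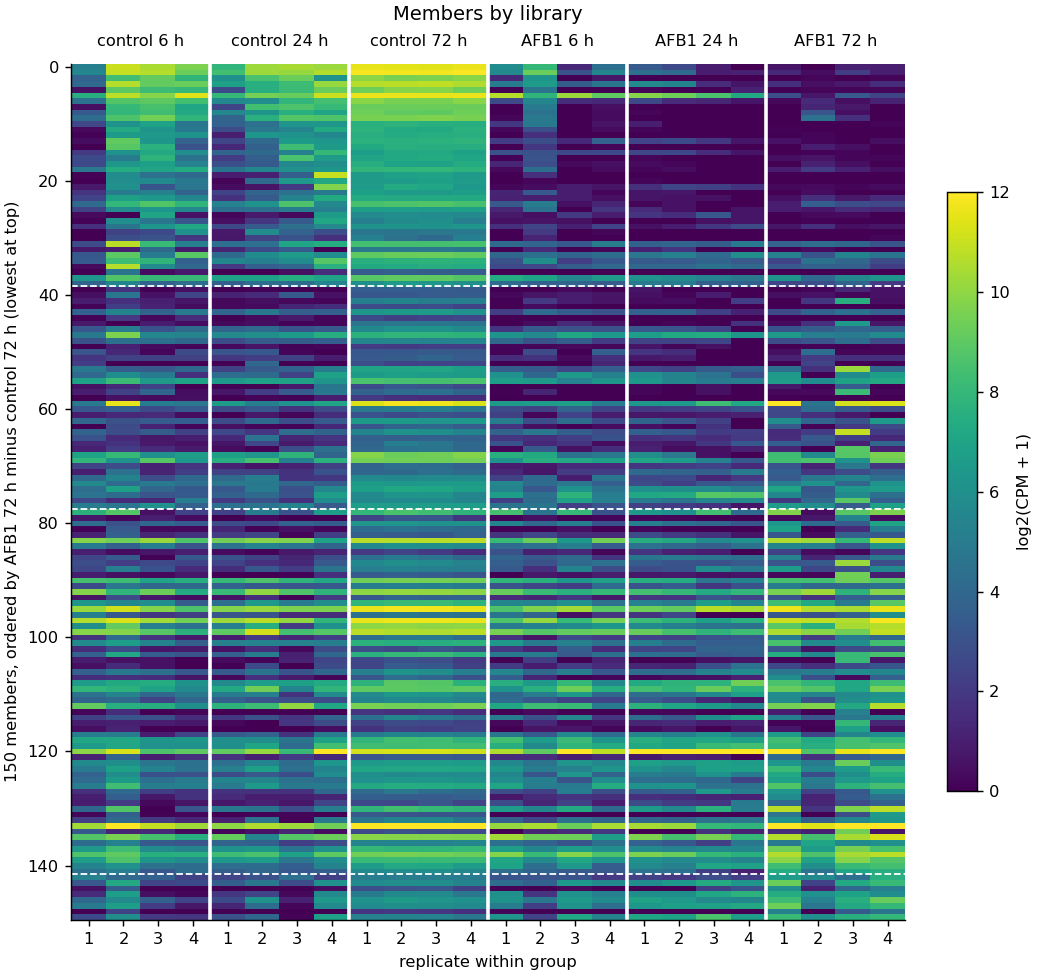
Log2(CPM + 1) of the 150 members (rows) in the 24 libraries (columns, by group and replicate), with rows ordered by the difference of AFB1 from control at 72 h and dashed lines between its 4 classes. The top 39 rows are lower by 3 or more in the AFB1 72 h libraries than in the 72 h controls, with group means of log2(CPM + 1) on AFB1 feed from 0 up to 9.42 (LOC119659226 at 6 h), and replicate 2 of AFB1 72 h is darker than its neighbours in the lower rows.

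Another 39 members were lower by 1 to 3 at 72 h on AFB1 feed, with a median of 2.94 there beside 4.91 in controls, and 13 of them were higher by 1 or more than at both earlier AFB1 times. The 64 members within 1 of the control at 72 h made up the largest class. Their median log2(CPM + 1) on AFB1 feed was 4.39 at 6 h, 4.45 at 24 h and 5.54 at 72 h, beside 4.00, 3.54 and 5.77 in controls. Of the 64, 40 were higher by 1 or more at 72 h than at both earlier times on AFB1 feed. In replicates 1, 3 and 4 of AFB1 72 h the median of this class was 6.50, 6.54 and 6.35, above that of the controls, and in replicate 2 it was 4.15, within the range of the earlier AFB1 libraries. The class was formed with the AFB1 72 h values, so these medians describe it and support nothing. LOC119646251, a member of this class and of the 8 with the largest control rise, stood at 241, 333, 264 and 225 CPM in the 72 h controls and at 1721, 2.62, 823 and 1797 CPM in the AFB1 72 h libraries. It was not called against 6 h (edgeR adjusted p = 0.169) or 24 h (adjusted p = 0.0867).

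The 8 members higher by 1 or more on AFB1 feed at 72 h had a median of 6.69 there and 5.24 in controls. They were already high at 24 h on AFB1 feed, with a median of 6.31 against 2.94 in controls. The 5 largest differences among members of at least 10 CPM belonged to LOC119649528, LOC119646442, LOC119654762, LOC119649537 and LOC119648749. LOC119649528 stood at 38.1, 40.1, 39.4 and 26.5 CPM in the 72 h controls and at 277, 58.9, 184 and 247 CPM in the AFB1 72 h libraries. LOC119649537 stood at 29.6, 50.9, 53.1 and 26.2 CPM and at 171, 65.3, 124 and 55.6 CPM. These were the 2 members whose AFB1 72 h libraries all lay above the controls, and both are lncRNA genes. Neither was called between times on AFB1 feed (edgeR adjusted p at 72 h against 6 h of 0.493 and 0.543, and against 24 h of 0.869 and 0.673), where LOC119649528 stood at 103 to 375 CPM and LOC119649537 at 61.8 to 215 CPM at 24 h already.

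The other 3 were protein-coding genes in which replicate 2 of AFB1 72 h was low. LOC119646442 stood at 52.3 to 60.2 CPM in the 72 h controls and at 648, 25.5, 150 and 251 CPM in the AFB1 72 h libraries. LOC119654762 stood at 66.3 to 91.2 CPM and at 302, 38.4, 186 and 601 CPM. LOC119648749 stood at 40.1 to 60.2 CPM and at 632, 4.42, 162 and 279.5 CPM. None of the 3 was called at 72 h against 6 h (edgeR adjusted p of 0.125, 0.129 and 0.223) or 24 h (0.411, 0.0922 and 0.383).

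The lncRNA members differed among themselves. LOC119649495, of the 8 with the largest control rise, stood at 245, 376, 323 and 225 CPM in the 72 h controls and at 858, 0.327, 470 and 804 CPM in the AFB1 72 h libraries, and was not called (edgeR adjusted p = 0.63 against 6 h, 0.401 against 24 h). Its early values were uneven on both diets, at 0.454 to 439 CPM in the 6 h controls and 7.57 to 349 CPM at 6 h on AFB1 feed. Over the 8 lncRNA members, AFB1 minus control at 72 h ran from -3.37 for LOC119661301 to 2.19 for LOC119649528.

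Many members lay next to each other. By the gene order of the assembly named above, 52 of the 150 members (34.7%) had another member as the next gene on either side, whereas 1.54% of 14947 other LOC genes had a member next to them. With at most 1 other gene between, 10 runs of 3 or more members held 38 members. Neighbouring genes of like sequence can share reads, and how the counting treated such reads is not given in the sources used here, so values within a run may not be independent. The differences of AFB1 from control at 72 h within 3 of the runs, picked after their values were seen, are given as examples. In the run of LOC119658357, LOC119658358 and LOC119657545, all 3 were lower by 6.52 to 7.55 at 72 h on AFB1 feed. In that of LOC119652764, LOC119652763, LOC119652755 and LOC119652756 the differences were -8.72, -7.44, -6.13 and -2.49. In that of LOC119655861, LOC119656010, LOC119655713 and LOC119654444 they were 0.72, 0.61, -0.48 and -0.31.

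The longest run held 6 protein-coding members, LOC119654016, LOC119653991, LOC119653984, LOC119661185, LOC119658450 and LOC119661364. LOC119661185 and LOC119653991 had the largest control rises after LOC119651578, at 4.13 and 4.11. LOC119661185 stood at 0 to 0.974 CPM in the 8 early controls and at 23.3, 26.0, 25.1 and 23.9 CPM in the 72 h controls. LOC119653991 stood at 0.175 to 2.10 CPM and then at 35.1, 41.3, 32.3 and 34.6 CPM. On AFB1 feed the whole run was high at 72 h in 1 library, replicate 3, and low in the other 3. Replicate 3 was the highest of the 4 AFB1 72 h libraries in 38 of the 150 members (25.3%), about an even share among 4 libraries. Over LOC genes the share was 14.8%, lowered by genes at 0 in all 4, which were counted for replicate 1. A pattern of replicate 3 alone being high was not particular to the run. Outside the run, LOC119656616 stood at 464 CPM in replicate 3 beside 0 to 1.35 in the other 3. LOC119656617 stood at 687 CPM beside 0.164 to 1.03, and LOC119652481 at 1164 CPM beside 6.21 to 9.16.

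In that replicate the 6 genes stood at 1188, 190, 40.0, 89.6, 494 and 1950 CPM, in the order given, above the 72 h controls in each case. In the other 3 AFB1 72 h libraries LOC119654016 stood at 2.04 to 18.9 CPM, LOC119653991 at 0 to 2.86 CPM and LOC119653984 at 0.193 to 0.736 CPM. LOC119661185 stood there at 0.289 to 2.04 CPM, LOC119658450 at 2.80 to 14.4 CPM and LOC119661364 at 1.73 to 3.36 CPM. LOC119654016 and LOC119661364 were called higher at 72 h than at 24 h (log2 fold change 4.97 and 5.78, edgeR adjusted p = 0.035 and 0.0454). Without replicate 3 of AFB1 72 h the first became 0.61 (adjusted p = 0.571) and the second -1.58. Both calls were also lost without any 1 of the AFB1 24 h libraries, or without replicate 1 or 4 of AFB1 6 h, and that of LOC119661364 without replicate 2 or 3 of AFB1 6 h as well (adjusted p of at most 0.124 in these cases for LOC119661364). LOC119653991, LOC119661185 and LOC119658450 were not called against 24 h (adjusted p = 0.07, 0.0665 and 0.451), and LOC119653984 did not pass the filter on low counts.

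**Figure D5:**
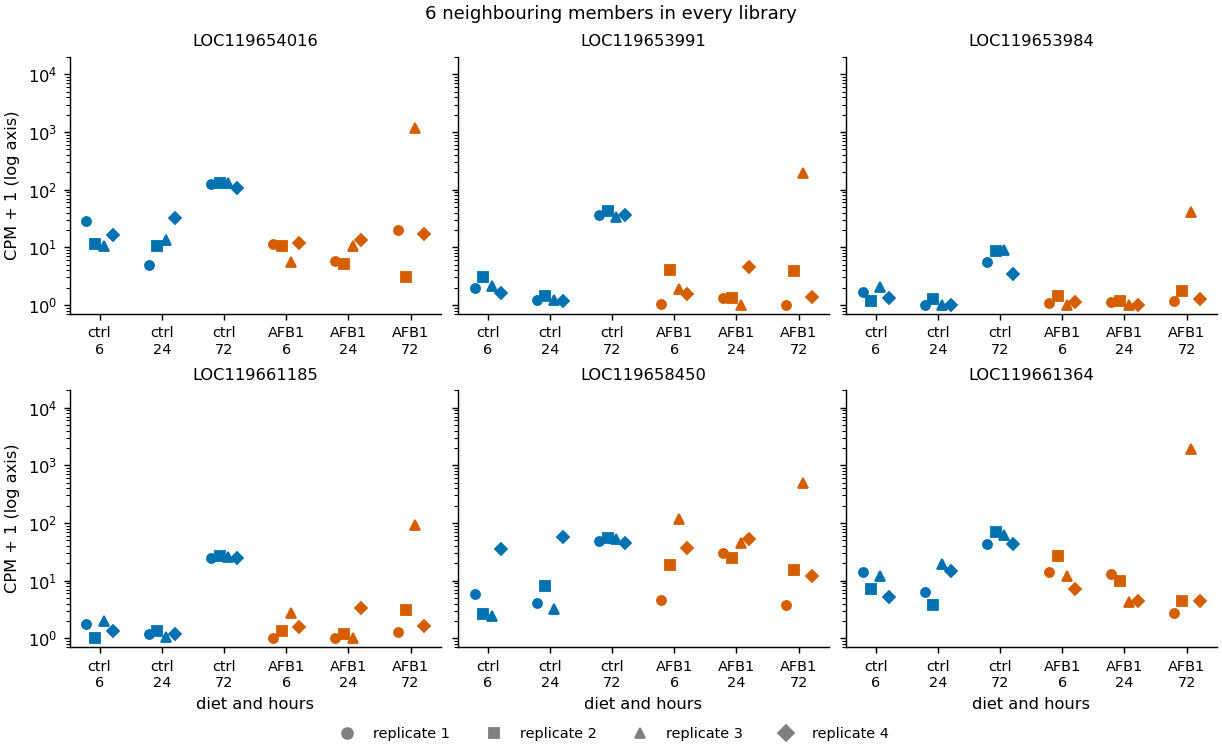
CPM + 1 on a log axis for the 6 neighbouring members of the longest run in every library, by diet (ctrl, control; AFB1) and hours; each symbol is 1 library and its shape gives the replicate number. All 6 are above the early controls in the 4 control 72 h libraries with the exception of overlaps in LOC119658450, and on AFB1 feed at 72 h only replicate 3 is high, from 40.0 CPM in LOC119653984 to 1950 CPM in LOC119661364.

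The members at the edge of the rule were unlike each other on AFB1 feed. LOC119655781 stood at 466, 531, 534 and 444 CPM in the 72 h controls and at 70.7, 16.4, 46.5 and 73.3 CPM in the AFB1 72 h libraries, and was not called between times on AFB1 feed (edgeR adjusted p = 0.387 against 6 h, 0.977 against 24 h). LOC119654084, described above, was higher than in the controls in 2 of 4 AFB1 72 h libraries. Of the genes just outside, LOC119651867 stood at 287 to 343 CPM in the 72 h controls and at 122 to 404 CPM in the AFB1 72 h libraries, and LOC119654851 at 23.9 to 36.3 CPM and 10.6 to 71.2 CPM.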

How the data were processed

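As deposited, the values are whole-number read counts of each gene in 24 libraries. The submitters' processing notes name STAR, and per the labels' protocols reads were pairs of 150 bp. For counting tool, build and strand setting, the sources used here give nothing. Differential expression was computed with DESeq2 by the authors, per the series' design text. Per the labels, 5 pools were collected per diet and time, and 4 are analysed here. The 9 rows that name no gene (0.0206% to 0.0431% of a library) stayed out of the printed library totals and the tests. They were kept in the totals behind CPM. Nothing says that pools came from separate containers, so p-values measure the spread between these samples, which may be technical.

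Levels are CPM on totals without LOC119646963, with a pseudocount of 1 before log2. The 12 AFB1 libraries were fitted with edgeR 4.0.16 in R 4.3.3 (TMM, filterByExpr, robust quasi-likelihood test, 1 coefficient per time, 9 residual degrees of freedom, common coefficient of biological variation 0.54), tested on simulated data. A fold change thus includes TMM scaling, which the printed CPM does not. DESeq2 1.42.0 and limma 3.58.1 served as alternatives, with changes of scaling, filter, pseudocount, libraries and block. By the correlation of deviations, replicate numbers pair AFB1 6 h with 24 h (every pair over 0.1) but neither with 72 h. Library pairs were compared gene by gene with chi-square tests (1 degree of freedom) on at least 20 summed counts.

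Members and lists were chosen with earlier results of these data known. Genes were named by rank of control rise (8), control 72 h level (5), difference of diets at 72 h among members of at least 10 CPM (5 lowest, 5 highest), lowest p (5 higher in both contrasts, 3 lower in either), longest run and edge of the rule. LOC119651465, LOC119646248, LOC119656616, LOC119656617, LOC119652481, the members at 0 counts, the other runs and LOC119661301 were chosen after their values were seen. Classes by protein sequence and cell type markers were not formed, for want of sequences and product names in the sources used here. All 150 members matched the reference table, which served for gene class and order only.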

Additional observations from a re-analysis of the deposited data

Results flagged for a closer look

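For the mean level of the 150 members and for each of the 32 named members, the groups of 4 libraries were searched, on log2(CPM + 1), for 1 library far from the rest by Dixon's ratio at its 95% limit for 4 values. Of 197 groups looked at, 20 passed. The limit gives about 1 in 20 groups by chance only for independent, normally distributed values. Groups with few counts and the near-identical 72 h controls may not meet this, so the 20 were not set against chance. No explanation is weighed here.

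In the AFB1 72 h libraries, replicate 2 stood far below the others for LOC119651578 (23.7 CPM beside 2355 to 5148), LOC119646251 (2.62 beside 823 to 1797) and LOC119649495 (0.327 beside 470 to 858). Replicate 3 stood far above the others for LOC119661364 (1950 CPM beside 1.73 to 3.36) and LOC119653984 (40.0 beside 0.193 to 0.736). In the AFB1 6 h libraries, replicate 4 was low for LOC119651578 (31.5 CPM beside 86.8 to 100) and LOC119660570 (3.03 beside 7.73 to 7.98), and replicate 2 was the one library with counts of LOC119652753, at 23.7 CPM. In the AFB1 24 h libraries, replicate 4 was high for LOC119661185 (2.33 CPM beside 0 to 0.163).

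Among the control 6 h libraries, replicate 2 was high for LOC119651578 (2982 CPM beside 25.9 to 32.5) and LOC119648749 (150 beside 4.67 to 8.65), replicate 3 was high for LOC119661222 (128 beside 0 to 0.513), and replicate 1 was low for LOC119652753 (0.468 beside 255 to 507). Among the control 24 h libraries, replicate 4 was high for LOC119661222 (91.9 CPM beside 0.131 to 0.831), replicate 2 for LOC119653991 (0.416 beside 0.175 to 0.203) and for LOC119653984 (0.277, the others at 0), replicate 3 for LOC119655781 (170 beside 120 to 122), and replicate 1 was low for LOC119658072 (238 beside 1184 to 1389). Among the near-identical control 72 h libraries, replicate 3 was low for LOC119659226 (3129 CPM beside 3241 to 3253) and replicate 4 for LOC119649528 (26.5 beside 38.1 to 40.1).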

How the results depend on the processing

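Each count is given with the share of tested members and, after it, of all tested genes. Members called higher at 72 h against 6 h on AFB1 feed (12; 10.7%, 1.62%) became 24 with DESeq2 (21.4%, 3.78%), 4 with only the 8 libraries compared (3.81%, 0.657%), 5 without a filter (3.4%, 0.754%), 5 with limma voom (4.46%, 0.981%) and 5 with AFB1 24 h replicates 1 and 2 summed to 1 (4.31%, 1.05%), an alternative chosen after seeing the data. Those called lower (6; 5.36%, 2.29%) became 3 without a filter (2.04%, 1.04%). Against 24 h, those called higher (32; 28.6%, 12.2%) became 17 with voom (15.2%, 7.19%), 20 with the summed pair (17.2%, 6.9%) and 2 without AFB1 24 h replicates 3 and 4 (1.56%, 0.755%). Between 24 h and 6 h, the counts of 0 higher and 0 lower became 2 (1.79%, 2.24%) and 2 (1.79%, 3.93%) with DESeq2. A fit of all 24 libraries tests all 150 members, 38 of which pass the filter only with the controls that chose them, so it is not independent of the rule: it gave 36 higher against 6 h (24%, 5.46%), 49 against 24 h (32.7%, 20.4%), and 1 higher (0.667%, 1.22%) and 2 lower (1.33%, 2.19%) between 24 h and 6 h. Leaving out each AFB1 library in turn gave 3 to 27 higher and 3 to 6 lower at 72 h against 6 h, 12 to 38 and 6 to 10 at 72 h against 24 h, and 0 to 4 and 0 to 3 at 24 h against 6 h. The 4 and 3 came without AFB1 6 h replicate 3 (3.45% and 2.59%, all genes 8.46% and 9.31%). The cause of these moves was not tested.

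The members higher by 1 or more at 72 h than at both earlier times on AFB1 feed (57) were 34 among the 100 of largest control rise and 45 to 66 with 1 AFB1 library left out; the median of AFB1 minus control at 72 h ran from -1.57 to -0.70. The planned list of 300 genes could not be formed, since 176 met both limits; over these, 65 were higher and the median was -1.02. Leaving out 1 control library, the rule kept 104 to 148 of the 150 members.

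For the replicate block, same-numbered libraries deviated together between AFB1 6 h and 24 h in all 4 pairs (correlation 0.119 to 0.467, other numbers -0.375 to 0.239). They did not in every pair between 6 h and 72 h (-0.132 to 0.278) or in any between 24 h and 72 h (-0.161 to 0.0187, all under 0.1). With the number as a block, 0 members were called between 24 h and 6 h in either direction, as without it. At 72 h against 6 h, 8 were higher (7.14%, all genes 0.897%) and 3 lower (2.68%, 1.53%), and against 24 h 20 (17.9%, 10.7%) and 8 (7.14%, 9.75%).

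For the 28 calls of named members, 497 of 639 alternative fits kept the call, 141 kept the direction without it, and 1 reversed: LOC119661364 at 72 h against 24 h, from 5.78 to -1.58 without AFB1 72 h replicate 3 (with each AFB1 library left out in turn, -1.58 to 6.23). In the AFB1 24 h libraries 20 to 45 members were at 0 counts; what depth contributed was not tested.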
